A study of Mus musculus with 32 samples.

Results

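The genes described here are 40 genes of mitosis: kinases and phosphatases that start and steer it, the spindle checkpoint, the kinetochore, spindle motors, and proteins that separate the daughter cells. They were taken by symbol from the table of normalised read counts, where all 40 were present among 34223 genes. Each library was 1 mouse embryo of the late 2-cell stage, taken 28 h after in vitro fertilization. Every embryo was wild type and had been injected with H3.3-GFP mRNA, which codes for a histone joined to a green fluorescent protein, and fluorescent embryos were kept. In 16 embryos, named Val_LNA, the mRNA came with an antisense oligonucleotide against tRFValCAC, a piece of the transfer RNA for valine. In the other 16, named Ctrl_LNA, it came with a scrambled one. Both oligonucleotides contained locked nucleic acid (LNA), a modified nucleotide that binds its target tightly. No uninjected embryos were analysed here. Whether the embryos of a group had separate parents or were injected on separate days is not in the labels, so a p-value measures only the spread among these embryos, which may be technical. A library holds the RNA of a whole embryo, so the number of cells and the RNA per cell cannot be told apart.

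At the late 2-cell stage both blastomeres of the mouse embryo approach their next division, while RNA stored in the egg is being replaced by RNA from the embryo's own genome. In mitosis, Polo and Aurora kinases build the spindle, and kinetochores tie chromosomes to its microtubules. The spindle checkpoint holds back the anaphase-promoting complex until every kinetochore is attached. Meiosis uses much of the same machinery, and the egg stores transcripts for it, so levels at this stage can mix stored and newly made RNA.

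Recovered read totals were between 2592925 and 6259870 per embryo. Of the control embryos, Ctrl_LNA 48 stood apart: 7276 genes had at least 1 read in it, against 16687 to 20200 in the other 31 embryos. It had reads for 34 of the 40 mitotic genes, against 39 or 40 in each other embryo. For 16 of the 40 it was above each of the other 15 controls and for 11 it was below them, so results are also given without it. All 8 measured markers of the 2-cell stage passed the filter on low values, with summed normalised counts of 5168 to 25910 in Val_LNA, 2822 to 24618 in the other 15 controls and 2632 in Ctrl_LNA 48. For 10 oocyte transcripts, the sums were 7653 to 40225, 6614 to 25143 and 1703 in the same order. For 10 cumulus and granulosa cell genes the sums were 188 to 1425, 490 to 1390 and 775, and 7 of them (Foxl2, Fshr, Inha, Has2, Ptgs2, Cyp19a1 and Ptx3) had a median under 1. Sums over 7 measured sperm genes reached at most 60.6 in Val_LNA and 50.4 in the other 15 controls, with 0 in Ctrl_LNA 48. Sums over 8 genes of later stages were 141 to 593, 168 to 888 and 5.25, with medians under 1 for Cdx2, Nanog, Sox17, Krt18 and Eomes. Of the tested genes in these 5 marker lists, 0 were called in limma, and their part in the results below was not tested.

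All 40 mitotic genes passed that filter, which kept genes with normalised counts of 10 or more in 8 or more embryos. To compare genes with each other, the mean normalised count of the 32 embryos was divided by exon length in kilobases (kb). This length merges the exons of all annotated transcripts of a gene. It can exceed the length of the transcript present, so levels and their order are approximate. On this scale Cdc20, an activator of the anaphase-promoting complex, was the most abundant of the 40 at 1143 per kb, at percentile 99.0 of the 15559 tested genes. Pttg1 (securin, which restrains the protease separase) followed at 1039 per kb, then the kinase Aurka at 549 per kb. Birc5 (survivin, of the chromosomal passenger complex) had 465 per kb, and the kinase Plk1 had 407 per kb. At the other end were the phosphatase Cdc25a at 14.7 per kb (percentile 37.6), Spc24 at 24.9 per kb and Ndc80 at 34.2 per kb. Genes of a single complex did not share a level: of the NDC80 complex, the microtubule-binding part of the kinetochore, Spc25 had 123 per kb and Nuf2 82.1 per kb, above their partners Spc24 and Ndc80. Mki67 lay low in the order, at 56.6 per kb (percentile 69.9).

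**Figure D1:**
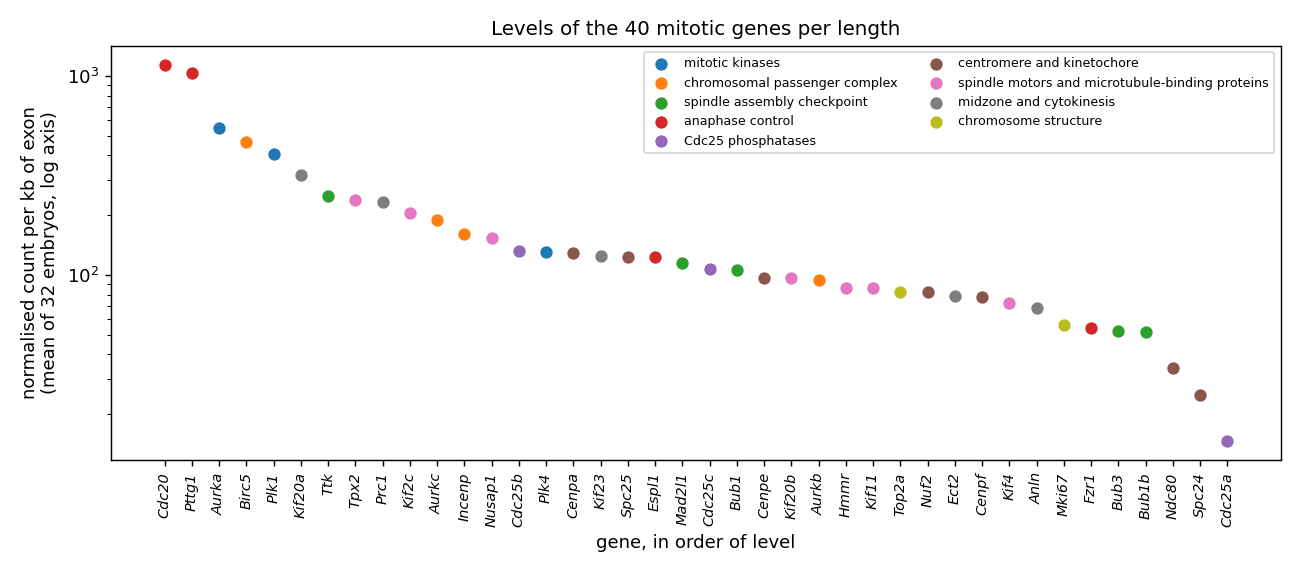
Mean normalised count per kb of exon over the 32 embryos (log axis) for each of the 40 mitotic genes, ordered by level and coloured by role. Levels fall from 1143 for Cdc20 to 14.7 for Cdc25a, and genes of a role are spread along the order.

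The comparison asks which transcripts differ when the tRNA fragment is inhibited. Of the 40 genes, 1 rose in Val_LNA, Mki67, and 0 fell (limma, Benjamini-Hochberg adjusted p under 0.05 over all tested genes). Among all 15559 tested genes, 137 rose (0.881%) and 204 fell (1.31%), so the share of the mitotic genes called was near the background. At an unadjusted p under 0.05, 2 of the 40 were higher (background 8.88%) and 5 were lower (background 5.85%). The log2 fold changes of the 40 genes, Val_LNA minus Ctrl_LNA on the log2(normalised count + 1) scale, had a median of -0.05, with 18 above 0 and 22 below. The median over all tested genes was 0.26. Without Ctrl_LNA 48 these medians were -0.06 and 0.07, and the limma calls among the 40 were again Mki67 higher (background 1.57%) and 0 lower (background 2.63%). edgeR called Ttk lower (background 1.08%) and 0 of the 40 higher (background 0.186%). DESeq2 called Mki67 higher (background 1.21%) and Ttk, Hmmr, Kif20b and Prc1 lower (background 2.09%). Without Ctrl_LNA 48, DESeq2 called Ttk, Mad2l1 and Kif4 lower (background 2.92%), so its calls of Hmmr, Kif20b and Prc1 were lost. The groups overlapped for each of the 40 genes, with 5 of all tested genes (0.0321%) free of overlap, or 7 (0.045%) without Ctrl_LNA 48. Together the 40 genes made up 0.705% ± 0.117 of normalised counts in Val_LNA (SD, n = 16) and 0.797% ± 0.181 in Ctrl_LNA (SD, n = 16), or 0.771% ± 0.155 without Ctrl_LNA 48 (SD, n = 15).

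**Figure D2:**
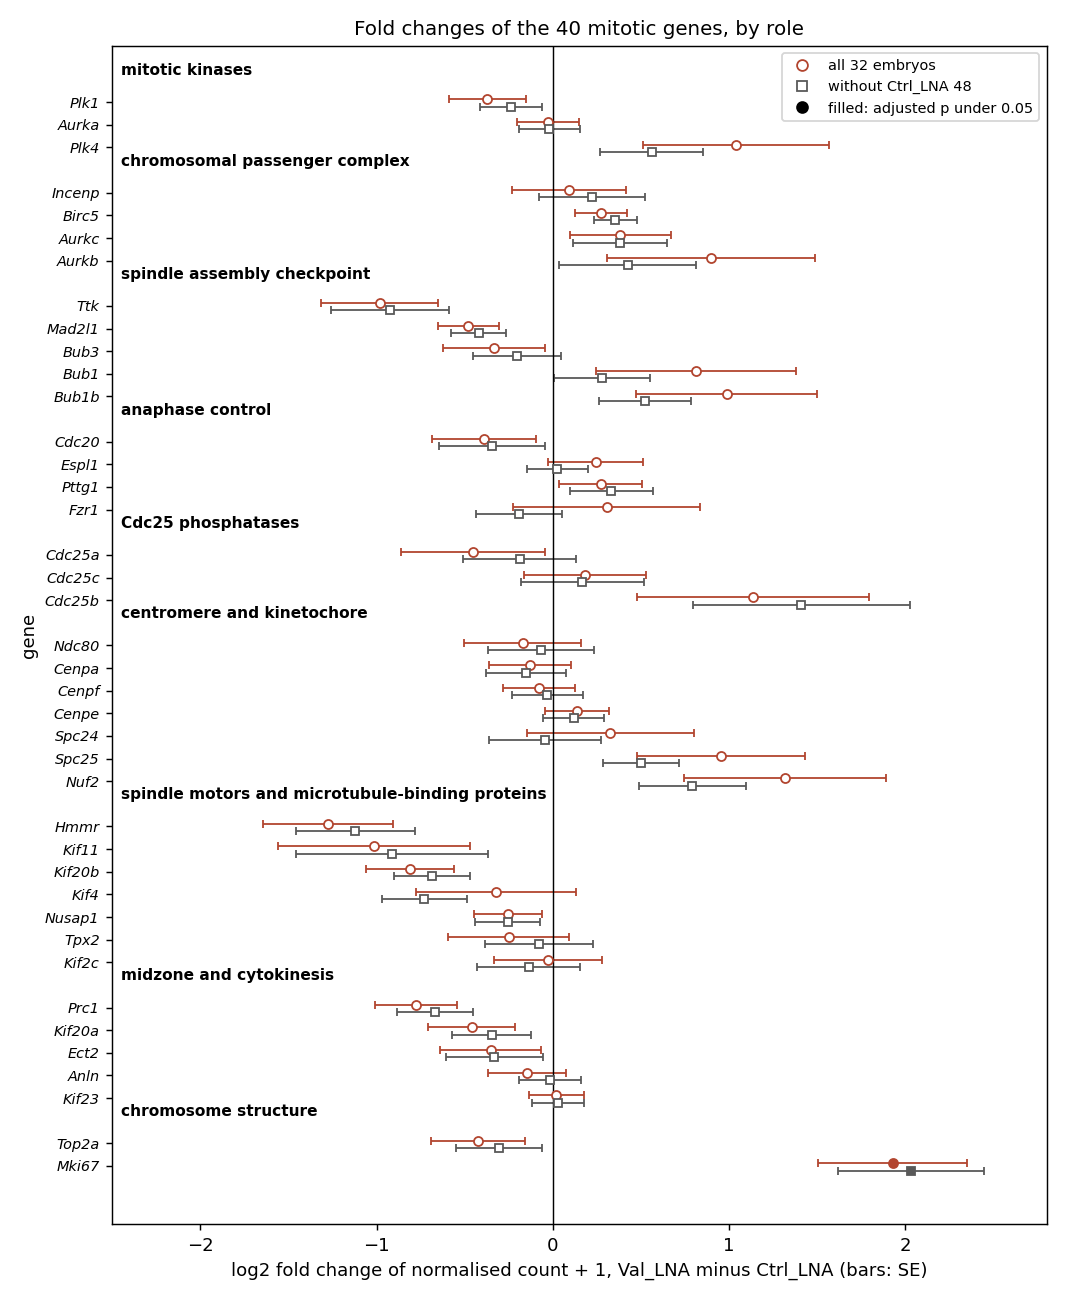
The log2 fold change of each mitotic gene (Val_LNA minus Ctrl_LNA, bars are the SE), with all 32 embryos (circles) and without Ctrl_LNA 48 (squares), grouped by role. Filled symbols have an adjusted p under 0.05, which Mki67 had in both fits, at 1.93 and 2.03, and the other 39 genes in neither.

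Mki67 codes for the proliferation antigen Ki-67, which coats mitotic chromosomes and keeps them apart. The gene (ENSMUSG00000031004.8) lies at chr7:135689784-135716361 on the minus strand of GRCm38. In Ctrl_LNA its normalised count was 15.8 in the lowest embryo, 232 at the median and 1047 in the highest. In Val_LNA it was 259, 791 and 1211 in the same order. All 16 Val_LNA embryos were above the control median, 9 of the 16 controls lay below the lowest Val_LNA embryo, and 1 control was above the Val_LNA median. The controls were widely spread, with Ctrl_LNA 31, 32, 33, 34 and 50 at 15.8 to 76.4, and Ctrl_LNA 48, at 598, was inside the range of the other controls. The group mean was 810 ± 236 for Val_LNA and 329 ± 295 for Ctrl_LNA (SD, 16 embryos each), a coefficient of variation of 29.1% against 89.7%. Without Ctrl_LNA 48 the coefficient for the controls was 95.2%, the highest of the 40 genes in that group.

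The fold change of Mki67 was 1.93 ± 0.42 on the log2 scale (SE, limma adjusted p = 0.00694), and 2.03 without Ctrl_LNA 48 (limma adjusted p = 0.00188). Mki67 was called in each of the 32 limma fits that left out 1 embryo, and in 12 of 17 other alternatives. DESeq2 gave 1.30 (adjusted p = 0.0188) and also called it without Ctrl_LNA 48 (background 1.95% higher). In edgeR's quasi-likelihood test Mki67 was not called, at 1.17 with all embryos (adjusted p = 0.154) and with an adjusted p of 0.102 without Ctrl_LNA 48 (background 0.546% higher). Centring each embryo on its median tested gene moved the median of all genes by -0.45, and Mki67 then had 1.48 (limma adjusted p = 0.262). The same centring without Ctrl_LNA 48, added after the data were seen, gave 1.96 (limma adjusted p = 0.00532).

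**Figure D3:**
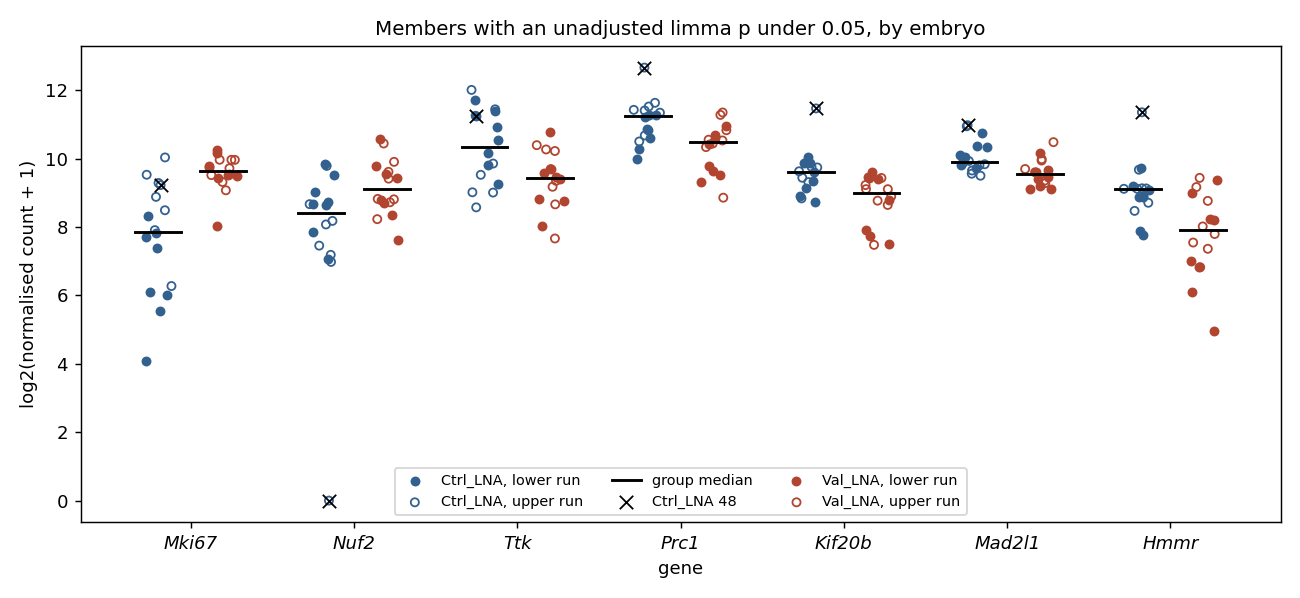
Values of log2(normalised count + 1) in each of the 32 embryos for the 7 mitotic genes with an unadjusted limma p under 0.05. Filled points are the lower run of library numbers, open points the upper run, black lines the group medians, and crosses mark Ctrl_LNA 48. The Mki67 values of Val_LNA lie above the control median in all 16 embryos, and Ctrl_LNA 48 is the highest control for Prc1, Kif20b, Mad2l1 and Hmmr and is at 0 for Nuf2.

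Top2a, which untangles DNA before chromosomes separate, was the other gene of chromosome structure and was not called. It had 218, 680 and 2602 normalised counts (lowest, median and highest embryo) in Ctrl_LNA and 221, 556 and 1060 in Val_LNA. Its log2 fold change was -0.43 ± 0.27 (SE, limma adjusted p = 0.453), and the Val_LNA range lay inside that of the controls.

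Of the mitotic kinases, 0 of 3 were called. Aurka, which matures centrosomes and the spindle, had 864, 1319 and 2592 normalised counts in Ctrl_LNA and 754, 1374 and 2080 in Val_LNA. Its log2 fold change was -0.03 ± 0.17 (SE, limma adjusted p = 0.952), with group ranges that overlapped almost fully. Plk1, which drives mitotic entry and exit, had a log2 fold change of -0.37 ± 0.22 (SE). Plk4, the trigger of centriole duplication, had 1.04 ± 0.53 (SE), and 0.56 without Ctrl_LNA 48, in which its count was 2.1. Of the Cdc25 phosphatases, which remove the block on the mitotic cyclin-dependent kinase, 0 of 3 were called. Cdc25b had 0, 202 and 2855 normalised counts in Ctrl_LNA and 82.8, 313 and 2479 in Val_LNA, with a log2 fold change of 1.14 ± 0.66 (SE, limma adjusted p = 0.416), and 1.41 without Ctrl_LNA 48, the highest control. It varied the most of the 40 genes among Val_LNA embryos, with a coefficient of variation of 114%. Cdc25a had a log2 fold change of -0.45, and Cdc25c of 0.18.

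The chromosomal passenger complex, which corrects faulty attachments of chromosomes to the spindle, had 0 of 4 genes called. Birc5 had 959, 1311 and 3152 normalised counts in Ctrl_LNA and 1090, 1615 and 2676 in Val_LNA. The log2 fold change was 0.27 ± 0.15 (SE, limma adjusted p = 0.375), and 14 of 16 Val_LNA embryos were above the control median. Without Ctrl_LNA 48, Birc5 had the smallest coefficient of variation of the 40 genes among controls, 18.2%. The kinase Aurkb had a log2 fold change of 0.90 ± 0.59 (SE), its germ line relative Aurkc had 0.38 ± 0.28 (SE), and the scaffold Incenp had 0.09 ± 0.32 (SE). All 4 were above 0 in limma with and without Ctrl_LNA 48. After centring each embryo Birc5, Aurkc and Incenp were at -0.17, -0.07 and -0.36, but at 0.29, 0.31 and 0.15 when Ctrl_LNA 48 was left out. Incenp was at -0.14 in edgeR and -0.08 in DESeq2, and at 0.06 and 0.07 without Ctrl_LNA 48. In the upper run of library numbers Incenp was at -0.41, and without Ctrl_LNA 48 Aurkb was at -0.46 there.

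Of the 5 spindle checkpoint genes, 0 were called in limma, and Ttk was called lower by both count tests. Ttk, also named Mps1, is the kinase that starts checkpoint signalling at unattached kinetochores, and the gene lies at chr9:83834689-83872389 on the plus strand. It had 380, 1314 and 4115 normalised counts in Ctrl_LNA and 202, 692 and 1754 in Val_LNA. Among Val_LNA embryos 14 of 16 were below the control median, and 7 of the 16 controls were above the highest Val_LNA embryo. In limma its log2 fold change was -0.98 ± 0.33 (SE, adjusted p = 0.126), and -0.92 without Ctrl_LNA 48 (adjusted p = 0.122). With edgeR's quasi-likelihood test it was -1.20 (adjusted p = 0.0328), and with DESeq2 -1.13 (adjusted p = 0.0204). Without Ctrl_LNA 48, the edgeR adjusted p for Ttk was 0.0332 (background 1.61% lower). Mad2l1, which binds and withholds Cdc20, had 722, 957 and 2012 normalised counts in Ctrl_LNA and 547, 747 and 1427 in Val_LNA, where 12 of 16 embryos were below the control median. For Mad2l1 the log2 fold change was -0.48 ± 0.17 (SE, limma adjusted p = 0.157), and it was called lower in DESeq2 without Ctrl_LNA 48 (adjusted p = 0.0336). The kinase Bub1 had a log2 fold change of 0.81 ± 0.57 (SE), its relative Bub1b had 0.98 ± 0.51 (SE), and their binding partner Bub3 had -0.33 ± 0.29 (SE). Without Ctrl_LNA 48, in which Bub1 and Bub1b were at 0, these log2 fold changes were 0.28, 0.52 and -0.20.

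Of the 4 genes of anaphase control, 0 were called. Cdc20 had 380, 2186 and 4410 normalised counts in Ctrl_LNA and 448, 1920 and 4368 in Val_LNA, a log2 fold change of -0.39 ± 0.30 (SE, limma adjusted p = 0.533). The ranges of the groups nearly coincided, but the top of the Val_LNA range was Val_LNA 7 alone, and the next highest Val_LNA embryo had 2455. The Cdc20 log2 fold change was 0.01 in the lower runs of library numbers and -0.79 in the upper runs (limma adjusted p = 0.479). For Pttg1 the log2 fold change was 0.27 ± 0.24 (SE), and for Espl1, which codes for separase, 0.24 ± 0.27 (SE). Fzr1 (Cdh1), the activator used late in mitosis, had 0.30 ± 0.53 (SE), and -0.19 without Ctrl_LNA 48, in which it was at 0.

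Of the 7 centromere and kinetochore genes, 0 were called. Nuf2 had 0, 344 and 910 normalised counts in Ctrl_LNA and 195, 566 and 1519 in Val_LNA, where 13 of 16 embryos were above the control median. Its log2 fold change was 1.31 ± 0.57 (SE, limma adjusted p = 0.277), and 0.79 without Ctrl_LNA 48 (limma adjusted p = 0.149). Its partner Spc25 had 0.95 ± 0.48 (SE), and 0.50 without Ctrl_LNA 48. Of the other partners, Ndc80 had -0.17 ± 0.33 (SE) and Spc24 had 0.32 ± 0.47 (SE), and without Ctrl_LNA 48 these were -0.07 and -0.04. Differences between these partners were not tested. Cenpa, the histone variant that marks centromeres, had 270, 752 and 1525 normalised counts in Ctrl_LNA and 262, 696 and 1637 in Val_LNA, with a log2 fold change of -0.13 ± 0.23 (SE, limma adjusted p = 0.810). The kinetochore motor Cenpe was at a log2 fold change of 0.14 ± 0.18 (SE), and Cenpf, of the outer kinetochore, had -0.08 ± 0.21 (SE).

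Of the 7 spindle motors and microtubule-binding proteins, 0 were called in limma, and all 7 log2 fold changes were below 0, against 5550 of 15559 tested genes. They were also all below 0 without Ctrl_LNA 48, as were 7123 of all tested genes, and after centring, as were 9496. Kif2c was at 0.03 in DESeq2 and at up to 0.13 with 1 embryo left out. In the lower run of library numbers Tpx2 was at 0.27, and in the upper run Kif4 was at 0.43 with Ctrl_LNA 48 included. The Kif4 count was 4.2 in that embryo and 237 to 854 in the other controls of the upper run. Hmmr, a microtubule-binding protein of the spindle poles, lies at chr11:40701395-40733422 on the minus strand and had the smallest limma adjusted p after Mki67. It had 215, 549 and 2614 normalised counts in Ctrl_LNA and 29.8, 239 and 691 in Val_LNA, where 13 of 16 embryos were below the control median. The highest control was Ctrl_LNA 48, and the next highest had 848. The log2 fold change of Hmmr was -1.28 ± 0.37 (SE, limma adjusted p = 0.0600), and -1.12 without Ctrl_LNA 48 (limma adjusted p = 0.0504). DESeq2 called it lower with all embryos (adjusted p = 0.0448) but not without Ctrl_LNA 48 (-0.81, adjusted p = 0.141), and edgeR did not (adjusted p = 0.150).

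Kif20b, a kinesin of the midzone microtubules, lies at chr19:34922361-34975745 on the plus strand. It had 423, 785 and 2827 normalised counts in Ctrl_LNA and 177, 512 and 773 in Val_LNA. All 16 Val_LNA embryos were below the control median, and 9 of the 16 controls were above the highest Val_LNA embryo. This gave a log2 fold change of -0.81 ± 0.25 (SE, limma adjusted p = 0.0863), and -0.69 without Ctrl_LNA 48 (limma adjusted p = 0.0646). DESeq2 called Kif20b lower with all embryos (adjusted p = 0.0364) but not without Ctrl_LNA 48 (-0.63, adjusted p = 0.0735), the highest control, and edgeR did not (adjusted p = 0.106). Kif4, a chromosome-bound kinesin, was at a log2 fold change of -0.32 ± 0.45 (SE), and -0.73 without Ctrl_LNA 48, in which its count was 4.2. It was called lower in DESeq2 without that embryo (adjusted p = 0.0350). Tpx2, which activates Aurka on the spindle, had 210, 921 and 5713 normalised counts in Ctrl_LNA and 315, 969 and 1612 in Val_LNA, with a log2 fold change of -0.25 ± 0.34 (SE, limma adjusted p = 0.741). Kif11, the motor that pushes spindle poles apart, had -1.02 ± 0.54 (SE), and the microtubule bundler Nusap1 had -0.26 ± 0.19 (SE). The microtubule depolymerase Kif2c had -0.03 ± 0.31 (SE).

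Of the 5 genes of the midzone and cytokinesis, 0 were called in limma. Prc1, which bundles the antiparallel microtubules of the midzone, lies at chr7:80294450-80316259 on the plus strand. It had 1014, 2422 and 6471 normalised counts in Ctrl_LNA and 462, 1432 and 2604 in Val_LNA, where 14 of 16 embryos were below the control median. The log2 fold change of Prc1 was -0.78 ± 0.23 (SE, limma adjusted p = 0.0747), and -0.67 without Ctrl_LNA 48 (limma adjusted p = 0.0714). DESeq2 called Prc1 lower with all embryos (adjusted p = 0.0451) but not without Ctrl_LNA 48 (-0.64, adjusted p = 0.0886), the highest control, and edgeR did not (adjusted p = 0.129). Kif20a, the kinesin that carries the passenger complex to the midzone, had 685, 1308 and 4698 normalised counts in Ctrl_LNA and 276, 1231 and 2063 in Val_LNA, a log2 fold change of -0.46 ± 0.25 (SE, limma adjusted p = 0.375). The centralspindlin motor Kif23 had 0.02 ± 0.16 (SE). The cytokinesis regulator Ect2 had -0.35 ± 0.29 (SE), and the contractile ring scaffold Anln had -0.15 ± 0.22 (SE).

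**Figure D4:**
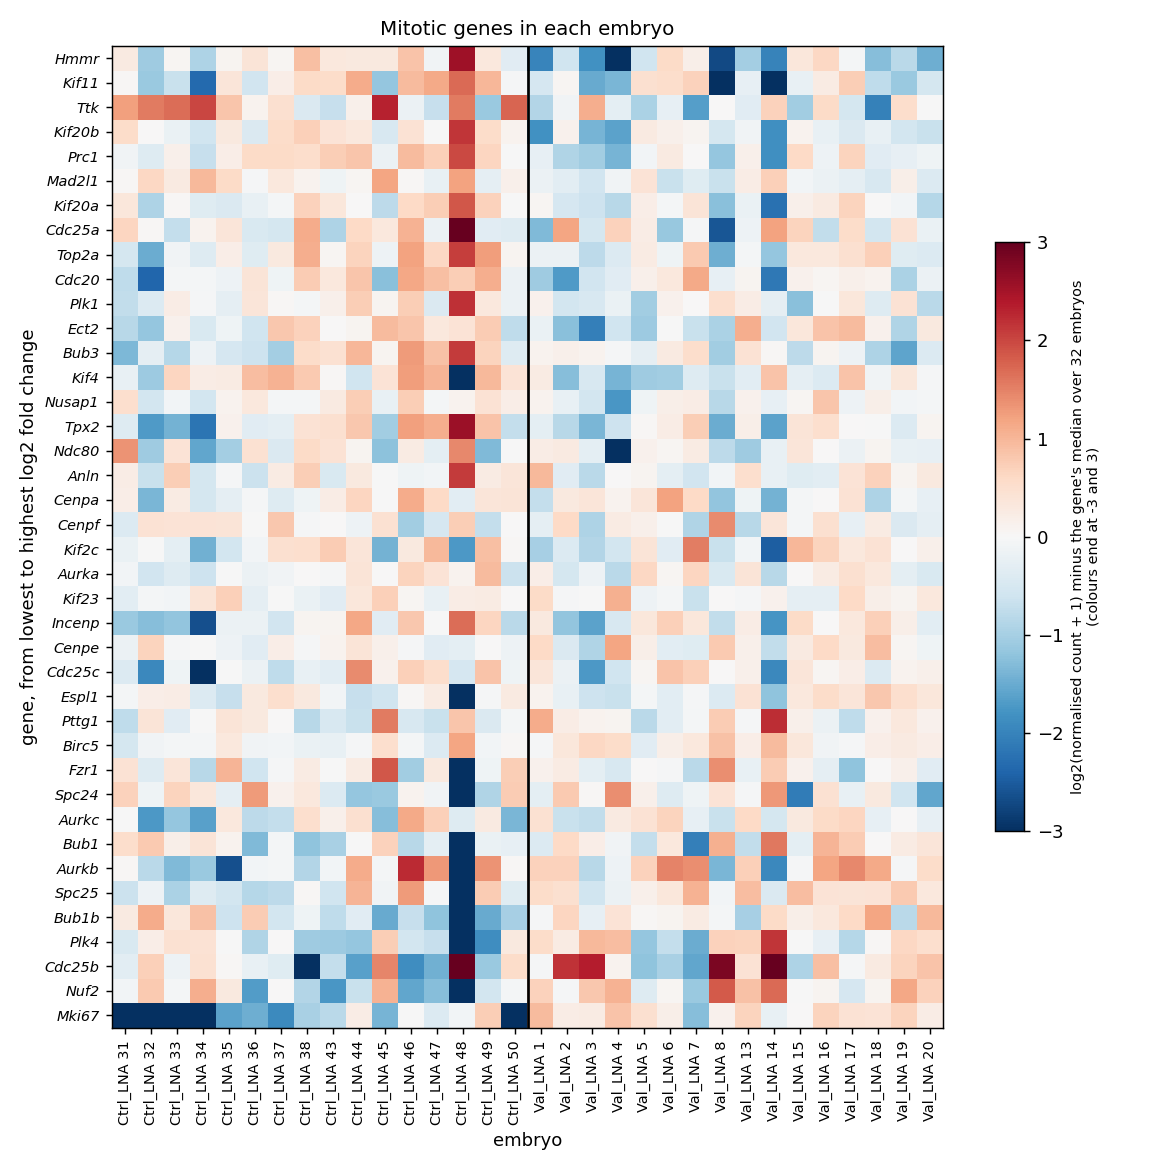
Each mitotic gene in each embryo, as log2(normalised count + 1) minus the median of that gene over the 32 embryos, with controls left of the black line and genes ordered by log2 fold change from Hmmr (-1.28) to Mki67 (1.93). Ctrl_LNA 48 is seen as a column of high and very low values, and the lowest Mki67 values are in Ctrl_LNA 31 to 34 and 50.

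Many genes of mitosis carry CCAAT boxes, bound by the factor NF-Y, and a CHR element, either TTTGAA or less often TTCGAA, bound by the MuvB complexes that repress and activate cell cycle genes. The 250 bases before the start site of the gene called in limma and of the 4 genes called lower in DESeq2 with all embryos are printed to show whether and where they hold these motifs, from RefSeq (GRCm38.p6), 5′ to 3′ on the strand of the gene. Capitals mark TTTGAA and also CCAAT or, where the box is reversed, ATTGG. The windows are chr7:135716380-135716629 (minus strand) for Mki67, chr9:83834439-83834688 (plus strand) for Ttk, chr11:40733438-40733687 (minus strand) for Hmmr, chr19:34922108-34922357 (plus strand) for Kif20b and chr7:80294201-80294450 (plus strand), the first of 2 listed start sites, for Prc1.
Mki67: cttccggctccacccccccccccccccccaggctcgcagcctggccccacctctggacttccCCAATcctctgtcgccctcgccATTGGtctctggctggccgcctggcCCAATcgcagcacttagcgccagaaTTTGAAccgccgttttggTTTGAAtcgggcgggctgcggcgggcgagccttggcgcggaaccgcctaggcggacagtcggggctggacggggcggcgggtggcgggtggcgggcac
Ttk: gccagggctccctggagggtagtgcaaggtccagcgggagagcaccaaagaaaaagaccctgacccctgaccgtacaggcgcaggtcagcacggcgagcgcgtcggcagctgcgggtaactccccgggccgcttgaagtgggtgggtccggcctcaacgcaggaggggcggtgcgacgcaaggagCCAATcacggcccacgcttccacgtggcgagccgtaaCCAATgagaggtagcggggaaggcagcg
Hmmr: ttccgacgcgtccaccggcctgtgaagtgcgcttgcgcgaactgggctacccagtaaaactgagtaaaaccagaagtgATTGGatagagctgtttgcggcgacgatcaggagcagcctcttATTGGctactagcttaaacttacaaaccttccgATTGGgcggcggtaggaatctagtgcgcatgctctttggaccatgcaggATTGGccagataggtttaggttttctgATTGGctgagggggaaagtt
Kif20b: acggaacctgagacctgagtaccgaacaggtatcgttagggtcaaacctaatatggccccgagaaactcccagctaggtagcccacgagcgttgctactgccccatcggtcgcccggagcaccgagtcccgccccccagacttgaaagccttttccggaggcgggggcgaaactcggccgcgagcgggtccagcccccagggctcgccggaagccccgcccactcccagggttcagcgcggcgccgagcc
Prc1: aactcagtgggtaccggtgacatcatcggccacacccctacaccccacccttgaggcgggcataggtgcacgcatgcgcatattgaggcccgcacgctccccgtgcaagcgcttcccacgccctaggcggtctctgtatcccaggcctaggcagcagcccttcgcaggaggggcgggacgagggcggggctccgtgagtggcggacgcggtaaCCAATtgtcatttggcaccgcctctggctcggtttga
The Mki67 window held 2 copies of TTTGAA, starting 116 and 98 bases before the start site, and 3 CCAAT boxes, 1 of them reversed. Ttk had 2 CCAAT boxes, at 65 and 28 bases before the start, Hmmr had 5 reversed boxes, and Kif20b had none of the motifs. The printed Prc1 window had 1 CCAAT box at 37 bases, and that of the other start site, not printed because it runs into the transcript, had TTTGAA at 30 bases as well as this box at 62. Both strands were searched for each of the 3 motifs, counted whether or not they overlapped. Of the 40 genes, 34 had a listed window, and 23 of these (67.6%) held CCAAT, against 37.5% of 27025 genes. TTTGAA was in 9 of 34 (26.5%), against 18.3%, and TTCGAA in 2 of 34 (5.88%), against 1.55%. A match describes the letters of the window and was not tied to any measurement of binding.

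Library numbers in the labels form a lower run (Val_LNA 1 to 8, Ctrl_LNA 31 to 38) and an upper run (Val_LNA 13 to 20, Ctrl_LNA 43 to 50), which the labels do not call batches. For Mki67 the medians were 736 against 117 normalised counts in the lower runs, Val_LNA first, and 844 against 534 in the upper runs. Its log2 fold change was 2.90 in the lower runs (limma adjusted p = 0.00629, background 0.623% higher) and 0.95 in the upper runs (limma adjusted p = 0.479, background 0.0129% higher), or 1.03 in the upper runs without Ctrl_LNA 48 (limma adjusted p = 0.295). The difference between these effects was -1.95 ± 0.70 (SE, limma unadjusted p = 0.00878, adjusted p = 0.817). Within either run 0 of the 40 were called lower (background 0.533% and 0.212%). The limma test of the difference between runs called 0 of the 40 genes and 0 of all 15559 tested genes (0%). At an unadjusted p under 0.05 it took 6 of the 40 (Mki67, Bub3, Bub1b, Espl1, Cenpa and Cdc25c) and 808 of all tested genes (5.19%). Among these 6, Bub3 was at 0.51 in the lower runs and -0.99 in the upper runs without Ctrl_LNA 48, and Bub1b at -0.12 and 1.25. Ttk had -1.31 in the lower runs and -0.49 in the upper runs without Ctrl_LNA 48. Prc1 had -0.68 and -0.69, Kif20b -0.70 and -0.68, and Hmmr -1.33 and -0.94 in the same order. Of the 40 genes, 25 had the same sign in both runs (62.5%), against 59.5% of all tested genes. Without Ctrl_LNA 48 in the upper run, 23 of the 40 did (57.5%), against 61.1%.

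Other genes of the same machinery were taken from 7 lists with 164 genes, of which 156 were tested. In limma with all embryos 2 rose and 3 fell, against 0.881% and 1.31% of all tested genes. Without Ctrl_LNA 48 there were 3 higher and 7 lower, against 1.57% and 2.63%. Those higher were Mis12, Haus1 and Kif22, and those lower were Pds5b, Pds5a, Cenpc1, Haus6, Kif18b, Cep192 and Anapc10. The cohesin regulator Pds5b fell, at -1.39 ± 0.29 on the log2 scale (SE, limma adjusted p = 0.00506), with all 16 Val_LNA embryos below the control median. With all embryos it was the 1 call among 17 tested genes of cohesin. Of 37 kinetochore and checkpoint genes other than the 40, Mis12, a kinetochore scaffold, rose by 2.27 ± 0.50 (SE, limma adjusted p = 0.00784). Cenpc1 (CENP-C, which links that scaffold to centromeric chromatin) was at -3.27 ± 0.67 (SE, limma adjusted p = 0.00352), from a median normalised count of 92.8 in Ctrl_LNA to 7.22 in Val_LNA. Of 46 centrosome, spindle and motor genes, 2 subunits of augmin, which branches spindle microtubules, were called in opposite directions. Haus1 rose by 1.67 ± 0.45 (SE, limma adjusted p = 0.0361) and Haus6 had -1.95 ± 0.45 (SE, limma adjusted p = 0.0108). The lists of the anaphase-promoting complex (19 tested), condensin (8), cytokinesis (13) and mitotic entry (16) had 0 limma calls with all embryos. Their smallest p belonged to Anapc5 (0.44, limma adjusted p = 0.307), Smc4 (-0.47, 0.210), Rhoa (0.90, 0.202) and Lin52 (-1.20, 0.166) respectively, each given as log2 fold change and adjusted p. edgeR called Pds5b, Cenpc1, Haus6 and Lin52 lower and 0 of the 156 higher, and DESeq2 called Mis12 and Haus1 higher and Pds5b, Cenpc1, Haus6 and Smc3 lower.

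The library kit does not mark strand, so reads of genes that overlap on opposite strands cannot be told apart. Of the 40 genes, 9 share exon bases with a gene on the other strand. The longest overlaps were those of Kif20a with Cdc23 (1271 bases), Prc1 with Rccd1 (911 of its 8225 exon bases) and Kif4 with Pdzd11 (832 of 5514). Cdc23 had a log2 fold change of -0.42 (limma adjusted p = 0.384), near that of Kif20a, Rccd1 of -0.58 (limma adjusted p = 0.126) and Pdzd11 of 0.31. Aurkc has 5 near-identical transcripts of other genes in the annotation (Gm12463, Gm45598, Gm6909, Gm7207 and Gm7789), so its counts are uncertain. For Mki67, Gm44521 matches it over 216 of 10061 exon bases.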

How the data were processed

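Single-embryo mRNA was sequenced for 16 Val_LNA and 16 Ctrl_LNA embryos. Per the labels' protocols, polyadenylated RNA was copied by template switching, amplified by PCR and made into libraries by tagmentation, with no molecular identifiers named, so PCR copies count as reads. The submitters' processing notes name STAR, Bowtie2, DESeq2 and SAMtools and the build mm10, with roles, versions and annotation not given in the sources used here. As values, the authors deposited a signal per gene and embryo, read counts over DESeq size factors per the file headers, and the size factors themselves, a ratio per embryo. Their product gave whole reads for 1095136 of 1095136 values (100%), each at most 0.0086 away from a whole number. Columns without a sample numbered 0. Over 240 pairs of embryos within groups, the lowest chi-square per gene was 23.4, so no library appeared to be deposited more than once within a group. Pairs between the groups were not compared.

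The test was limma 3.58.1 (R 4.3.3) (trend and robust options) on log2(normalised count + 1), over 15559 genes with at least 10 in at least 8 embryos, with Benjamini-Hochberg adjustment over all of them and a threshold of 0.05. The pseudocount understates changes of low genes. Alternatives were edgeR 4.0.16 (quasi-likelihood), DESeq2 1.42.0 and limma-voom on recovered reads, other pseudocounts, filters, centring, covariates, array weights, runs of library numbers, and leaving out each embryo. DESeq2 without Ctrl_LNA 48 gave adjusted p-values for 13749 genes. On simulated counts with 200 of 15559 genes changed by 2 on the log2 scale, limma recovered 147 (73.5%) and edgeR 164 (82%), with 7 false calls each. The changed genes were drawn only from more abundant genes, so these rates do not cover low genes or smaller changes. Counts were drawn independently for each gene, with no embryo like Ctrl_LNA 48 and no runs, so the rates do not cover those either. IDs matched GENCODE M21 (GRCm38) for 34179 of 34223 genes, which gave coordinates and exon lengths. Transcripts of other genes counted as near-identical from 95% identity over 200 bases. Correlations used 100000 resamples in Python 3.11.15 (numpy 2.4.6, pandas 2.3.3), and figures matplotlib 3.10.9.

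The 40 genes and the lists were chosen with earlier results of these data known. Full values are given for members called in limma, edgeR or DESeq2, for others with an unadjusted limma p under 0.05, and for the member with the most normalised counts per kb of each role. Other lists name each limma call, or the gene with the smallest p.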

Additional observations from a re-analysis of the deposited data

How the results depend on the processing

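Of the 40 genes, the number called higher was 0 in edgeR, in edgeR without Ctrl_LNA 48 and after centring (background 0.392%). It was also 0 in the upper runs alone and in the upper runs without Ctrl_LNA 48 (background 0.045%). With array weights it was 2 (Mki67 and Spc25, background 2.27%). It was 1 in each leave-one-out fit (range 1 to 1). The number called lower was 1 in edgeR and 1 in edgeR without Ctrl_LNA 48 (Ttk both times), 4 in DESeq2 (Ttk, Kif20b, Prc1 and Hmmr) and 3 in DESeq2 without Ctrl_LNA 48 (Kif4, Ttk and Mad2l1). It was 1 with a pseudocount of 10 (Hmmr, background 1.8%) and 3 with array weights (Kif4, Kif20b and Hmmr, background 3.62%). Leaving out 1 embryo gave 0 to 2, with Hmmr called in 6 fits and Prc1 in 3.

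For all genes, those called higher numbered 137 in limma with all embryos, 29 in edgeR, 85 in edgeR without Ctrl_LNA 48, 268 in DESeq2 without it, 87 with no filter, 61 after centring, 353 with array weights, 2 in the upper runs and 7 there without Ctrl_LNA 48. Leaving out 1 embryo gave 100 (without Val_LNA 18) to 245 (without Ctrl_LNA 48). Those called lower numbered 204, then 325 in DESeq2, 401 in DESeq2 without Ctrl_LNA 48, 564 with array weights, 83 in the lower runs, 33 in the upper runs and 124 there without Ctrl_LNA 48. Centring without Ctrl_LNA 48, added after the data were seen, gave 433 lower. Leaving out 1 embryo gave 176 (without Val_LNA 1) to 409 (without Ctrl_LNA 48). The share of calls that were higher was 40.2%, against 16.9% after centring, 30.0% after centring without Ctrl_LNA 48 and 14.7% in edgeR. The runs hold fewer embryos than the full fit, and the cause of these shifts was not tested. Medians of all genes moved by -0.22 in edgeR, -0.12 in DESeq2 and -0.45 after centring. With all embryos these medians were 0.26 in limma, 0.04 in edgeR, 0.14 in DESeq2 and -0.19 after centring. Without Ctrl_LNA 48 they were 0.07, 0.02, 0.05 and -0.0 in the same order. Effects that differ between runs numbered 0 among the 40 genes with and without Ctrl_LNA 48. No paired analysis was possible because the groups share no library number. Depth limits low genes: Mki67 had 15 reads in its lowest embryo.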

Other observations

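Across embryos, Mki67 and Ttk were compared after their values had been seen, so this pair was chosen from many. In the 15 controls without Ctrl_LNA 48, log2(normalised count + 1) of Mki67 and Ttk had Pearson's r = -0.74 (permutation p = 0.00153, adjusted p = 0.00459) and Spearman's rho = -0.74 (permutation p = 0.00209, adjusted p = 0.00627). Without the 2 embryos farthest from the Mki67 median r was -0.78, and it was -0.76 in the lower run and -0.75 in the upper run. With Ctrl_LNA 48 included, r was -0.65 (permutation p = 0.00721, adjusted p = 0.0108) and rho was -0.63 (permutation p = 0.00999, adjusted p = 0.0150). The control embryos with the lowest Mki67, Ctrl_LNA 31, 32, 33, 34 and 50 (15.8 to 76.4 normalised counts), had 1940 to 3341 normalised counts of Ttk, above the control median of 1314. In the 16 Val_LNA embryos r was 0.23 (permutation p = 0.393) and rho 0.01 (permutation p = 0.969), and r was -0.10 without the 2 farthest embryos. Adjusted p-values cover these 3 relations, of which 2 share the same 15 controls, and not the choice of the pair. They therefore cannot say how unusual the pair is. The difference between the groups was not tested.

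Some embryos held the extreme values of many mitotic genes. Val_LNA 14 had the lowest value of its group for 12 of the 40, among them Aurka, Cdc20, Prc1 and Kif20b, and the highest for 8, among them Plk4, Birc5, Bub1 and Mad2l1. Of the other controls, Ctrl_LNA 32 was lowest for 9, among them Cdc20, Hmmr and Top2a, and Ctrl_LNA 34 for 7, among them Kif11, Tpx2 and Ndc80. Extremes over all tested genes were not counted for these embryos or for Ctrl_LNA 48, so no trait of mitotic genes is shown. Over the tested genes, Val_LNA 14 and Ctrl_LNA 32 had median correlations with the other embryos of 0.609 and 0.626. These were the lowest after Ctrl_LNA 48, at 0.496.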
